A study of Mus musculus with 6 samples.

Results

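The extracellular matrix genes described here are the collagen chains, the laminin chains and 12 further genes of basement membrane, collagen processing and matrix turnover (Fn1, Sparc, Pcolce, Nid1, Nid2, Hspg2, Serpinh1, Lox, Timp1, Timp2, Timp3 and Mmp2). They were chosen by symbol from the deposited table, and 66 of its 18518 gene symbols met the rule: 43 collagen chains, 11 laminin chains and the 12 named genes. A value above 0 in at least 3 of the 6 libraries was required, which left out 1 of 67 matching symbols, Col19a1. The cells were E14Tg2A, an established mouse embryonic stem cell line, in 2 groups: BACH1-KO, in which Bach1 was disrupted with CRISPR/Cas9 (3 libraries), and WT (3 libraries). Both were kept for 2 days in medium with fetal bovine serum and murine leukemia inhibitory factor at 200 units/ml, and neither group received another agent. Knockout cells had been transfected with a Cas9 and guide plasmid, selected with puromycin and sorted as single-cell clones, and the labels do not say whether the 3 knockout libraries came from 1 clone, nor whether the libraries of a group came from separate cultures. The spread behind each p-value is thus that of these libraries and may be technical only. BACH1 is a heme-sensitive transcription factor, and the series asks how it bears on self-renewal and differentiation of these cells.

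A basement membrane is a thin sheet of matrix that cells lay down beneath themselves. Laminins, each a trimer of an alpha, a beta and a gamma chain, form one network and type IV collagen a second, and nidogens and the proteoglycan perlecan link them. It is among the first matrices of the mouse embryo, where laminin is needed for epiblast polarity, and embryonic stem cells make laminin, type IV collagen, nidogens and fibronectin themselves. Fibrillar collagens, in contrast, are typical products of fibroblasts, bone and cartilage.

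Levels are in FPKM, which divides the fragments of a gene by its transcript length and by the library's mapped fragments, so that genes can be compared per length. All 10 embryonic stem cell markers on a fixed list (Pou5f1, Sox2, Nanog and others) were above 0 in every library, with sums of 6784 to 7034 FPKM in BACH1-KO and 10525 to 11298 FPKM in WT. Most of each sum was Dppa5a, which averaged 4284 FPKM in BACH1-KO and 6606 FPKM in WT. In every knockout library 8 of the markers were lower and 2, Nanog and Sall4, higher. Between 17276 and 17455 genes were above 0 in BACH1-KO and between 16047 and 16159 in WT. The absolute sequencing depth is unknown, and the steps of low values gave relative depths of 1.01 to 1.17 for BACH1-KO and 1.00 to 1.10 for WT. Bach1 itself averaged 10.4 ± 0.0719 FPKM in BACH1-KO and 8.28 ± 0.266 FPKM in WT (SD, n = 3 each, limma adjusted p = 5.15e-04). A transcript level does not show whether the coding sequence was edited.

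The stretch of DNA where the genes of the major type IV collagen chains begin is shown first, because both chains fell and their genes start within it. Col4a1 runs leftward and Col4a2 rightward on chromosome 8, and by the GENCODE vM21 annotation their first exons share 22 bases, at chr8:11312805-11312826 (GRCm38, the assembly also named mm10, plus strand, sequence from RefSeq). Capitals mark GGGCGG, an element of many promoters.
Col4a1 and Col4a2 shared start: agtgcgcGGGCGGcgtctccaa

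Promoter windows of RefSeq (GRCm38.p6, 250 bases before to 50 after a start site) were found for 47 of the 66 genes. Shown are the 150 bases before the start of Col5a3 and Lama5, the largest falls, and of Serpinh1, the only rise, among the 6 of 16 called genes with a single window that had no annotated exon in those bases. Capitals mark CCAAT or GGGCGG on either strand, known elements of many promoters. The positions are chr9:20815068-20815217 for Col5a3, chr2:180225860-180226009 for Lama5 and chr7:99353240-99353389 for Serpinh1, all on the minus strand and written 5′ to 3′ toward the gene.
Col5a3: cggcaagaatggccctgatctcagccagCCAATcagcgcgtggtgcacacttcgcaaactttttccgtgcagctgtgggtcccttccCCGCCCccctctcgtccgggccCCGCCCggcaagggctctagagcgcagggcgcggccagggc
Lama5: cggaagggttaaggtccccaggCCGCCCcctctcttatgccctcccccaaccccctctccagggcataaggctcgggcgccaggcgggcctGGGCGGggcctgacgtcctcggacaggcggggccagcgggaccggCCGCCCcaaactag
Serpinh1: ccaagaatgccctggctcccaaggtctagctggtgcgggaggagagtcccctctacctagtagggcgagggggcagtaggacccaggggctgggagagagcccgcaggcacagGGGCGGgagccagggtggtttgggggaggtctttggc

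The windows were searched on both strands for the Maf recognition element, bound by BACH1 and NRF2 with small MAF proteins, and for its core TGANTCA, which any match to the longer element also contains. None of the 47 matrix genes held the longer element, against 0.167% of all 27025 genes with a window, and 1 (Col6a1) held TGANTCA, against 8.97%. The STAT element TTCNNNGAA was in 3 (Col28a1, Col6a5 and Lamb2), or 6.38%, against 9.55%. CCAAT was in 36.2% of the matrix genes and 41.1% of all genes, and GGGCGG in 68.1% and 38.2%. Median GC content was 60.0% over the matrix windows and 52.7% over all windows, which include those of noncoding genes.

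Most matrix genes with appreciable expression were lower in the knockout cells. The test covered 28 genes, those averaging 1 FPKM or more across all libraries, of which 17 fell, 8 rose and 3 did not pass (limma on log2 of FPKM + 1, adjusted p under 0.05 over all 12187 genes tested, 3 against 3 libraries). That is 60.7% lower and 28.6% higher, where 39.7% of all genes tested were lower and 37.3% higher, 77.0% called in all. The libraries of the groups did not overlap for 25 of the 28, as for 79.3% of all genes tested. The median log2 fold change of the 28 was -0.51, against -0.01 over all genes tested. Genes that at least halved, by the ratio of FPKM means, made up 32.1% of the matrix genes tested (9 of 28) and 6.05% of all genes tested, and genes that at least doubled 17.9% (5 of 28) and 11.4%. The filter on the overall mean was passed by 4 genes only because of BACH1-KO (Col2a1, Col9a3, Col26a1 and Lamb3, each under 1 FPKM in WT) and by 2 only because of WT (Lama1 and Col5a3). A gene that passed only through the group where it is high had to differ, so these 6 add nothing to the shares, and 4 of the 5 doubled genes are among them. Of the other 22, with both group means at 1 FPKM or more, 15 fell (68.2%), 4 rose (18.2%) and 3 did not pass, where 41.1% of such genes fell and 34.7% rose. In this set 7 genes at least halved (31.8%, against 5.29% of such genes) and 1, Col9a2, at least doubled (4.55%, against 7.62%). In bulk RNA, fewer cells of a type and less RNA per cell cannot be told apart. Exact two-sided permutation tests of single values cannot go below p = 0.1 with 3 against 3 libraries.

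**Figure D1:**
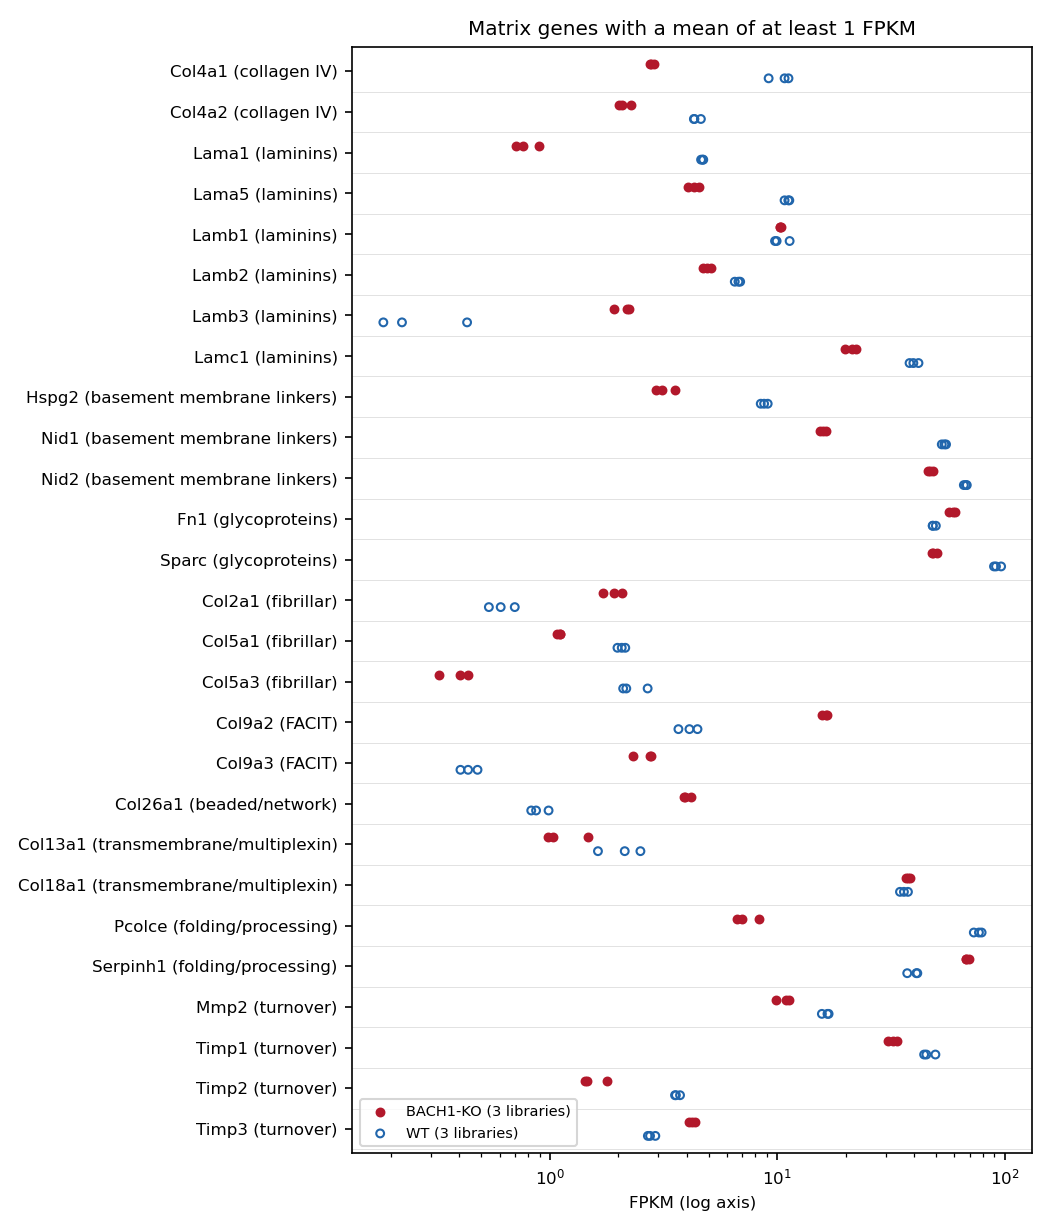
FPKM (log axis) of 27 of the 28 matrix genes tested, by role, with 3 BACH1-KO libraries (filled, above) and 3 WT libraries (open, below) per gene. The groups separate for all genes plotted but Lamb1 and Col18a1, with the widest gap to the left for Pcolce and rises to the right for Lamb3, Col9a2, Col9a3 and Col26a1.

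**Figure D2:**
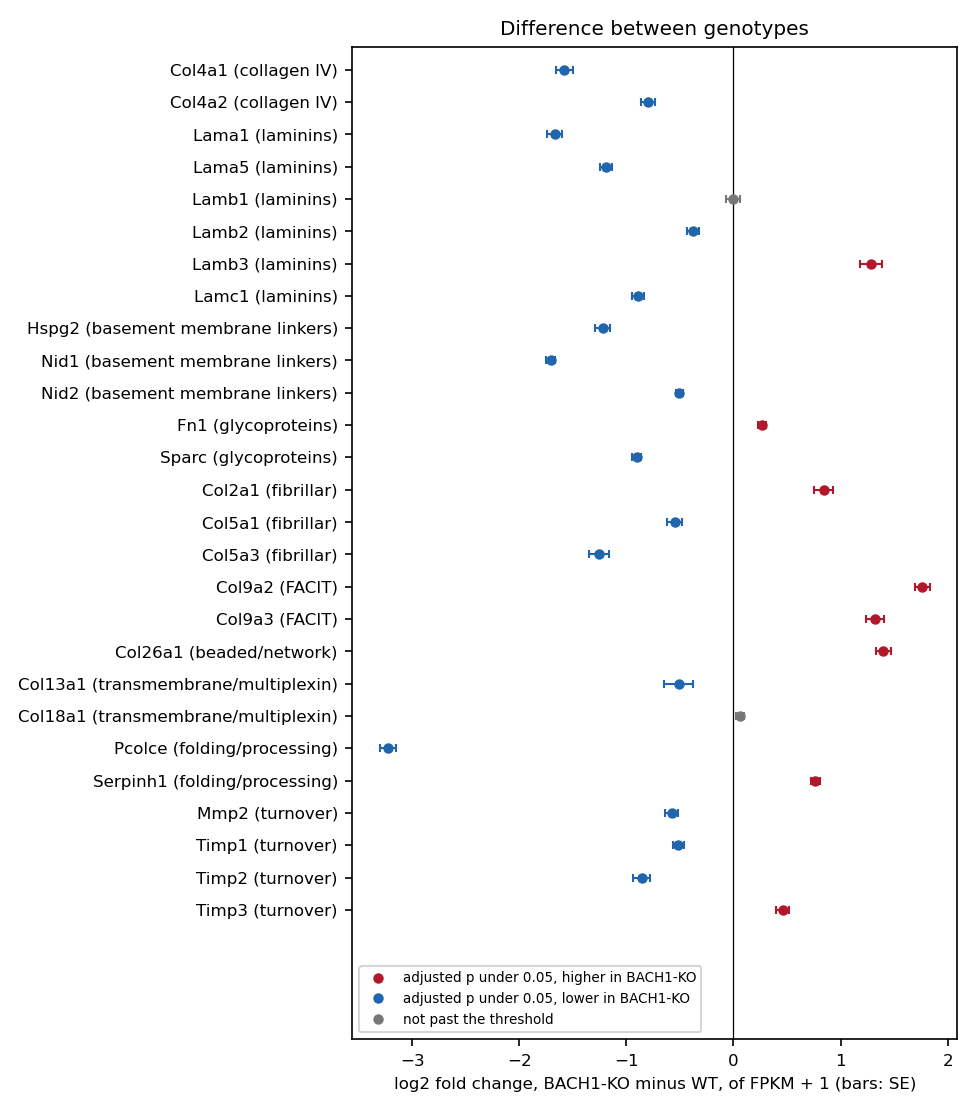
Log2 fold change of FPKM + 1, BACH1-KO minus WT, with its standard error, for the same genes. Values run from -3.23 for Pcolce to 1.76 for Col9a2, and points for Lamb1 and Col18a1 lie close to 0.

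Both major type IV collagen chains fell, Col4a1 more than Col4a2. Col4a1 (chr8:11198423-11312826, minus strand) had 2.78, 2.86 and 2.75 FPKM in BACH1-KO, against 9.15, 10.8 and 11.2 FPKM in WT, a log2 fold change of -1.58 (SE 0.08, limma adjusted p = 6.25e-07). Col4a2 (chr8:11312805-11449287, plus strand) had 2.06, 2.01 and 2.27 FPKM in BACH1-KO, against 4.32, 4.29 and 4.61 FPKM in WT (log2 fold change -0.80, SE 0.07, limma adjusted p = 1.32e-05). Every knockout library was below every WT library for both. These chains assemble into one trimer that holds more of the Col4a1 than of the Col4a2 chain, and their transcript ratio within a library was 1.34, 1.43 and 1.21 in BACH1-KO, against 2.12, 2.50 and 2.43 in WT, with no overlap (exact two-sided permutation p = 0.1). The other type IV chains, found in specialised basement membranes such as that of the kidney glomerulus, were no higher than 0.343 FPKM in any library.

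The alpha and gamma chains of the early embryonic laminins fell, while the beta chain Lamb1 did not pass. Lama1 (chr17:67697259-67822647), the alpha chain of the first laminin of the embryo, had 0.711, 0.893 and 0.764 FPKM in BACH1-KO, against 4.70, 4.62 and 4.72 FPKM in WT (log2 fold change -1.67, SE 0.07, limma adjusted p = 3.34e-07). Lama5 (chr2:180176373-180225859), the alpha chain of the laminin widely used as a coating for pluripotent cells, had 4.06, 4.51 and 4.29 FPKM in BACH1-KO, against 11.2, 10.8 and 11.3 FPKM in WT (log2 fold change -1.19, SE 0.06, limma adjusted p = 5.02e-07). Its start is among the promoters printed above. Both alpha chains were below every WT library in every knockout library, and their order was the same in both genotypes, with Lama5 above Lama1.

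Lamc1 (chr1:153218922-153332786), the common gamma chain and the most abundant laminin transcript, had 19.8, 22.1 and 21.3 FPKM in BACH1-KO, against 41.7, 38.1 and 39.6 FPKM in WT (log2 fold change -0.89, SE 0.05, limma adjusted p = 1.69e-06). Lamb1 (chr12:31265234-31329644), its common beta partner, had 10.3, 10.4 and 10.2 FPKM in BACH1-KO, against 9.77, 9.93 and 11.3 FPKM in WT, and did not pass (log2 fold change -0.00386, SE 0.06, limma adjusted p = 0.958). The WT values spread on both sides of the knockout values. The ratio of Lamb1 to Lamc1 was 0.490 ± 0.0268 in BACH1-KO and 0.260 ± 0.0259 in WT (SD, n = 3 each, exact permutation p = 0.1), and that of Lama1 to Lamb1 was 0.0767 ± 0.00863 in BACH1-KO and 0.454 ± 0.0332 in WT (exact permutation p = 0.1). The ratio of Lama5 to Lama1 was 5.46 ± 0.360 in BACH1-KO and 2.37 ± 0.0328 in WT (exact permutation p = 0.1).

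Lamb2, the beta chain of muscle and kidney laminins, fell to 4.92 ± 0.196 FPKM in BACH1-KO, against 6.70 ± 0.186 FPKM in WT (SD, n = 3 each, limma adjusted p = 3.56e-04). Lamb3, the beta chain of the laminin of skin, which anchors keratinocytes, rose. It had 1.92, 2.24 and 2.19 FPKM in BACH1-KO, against 0.224, 0.185 and 0.432 FPKM in WT, with no overlap (log2 fold change 1.29, SE 0.10, limma adjusted p = 8.31e-06). Its alpha partner Lama3 stayed under 1 FPKM, with 0.248, 0.316 and 0.357 FPKM in BACH1-KO and 0.184, 0.0690 and 0.0954 FPKM in WT.

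**Figure D3:**
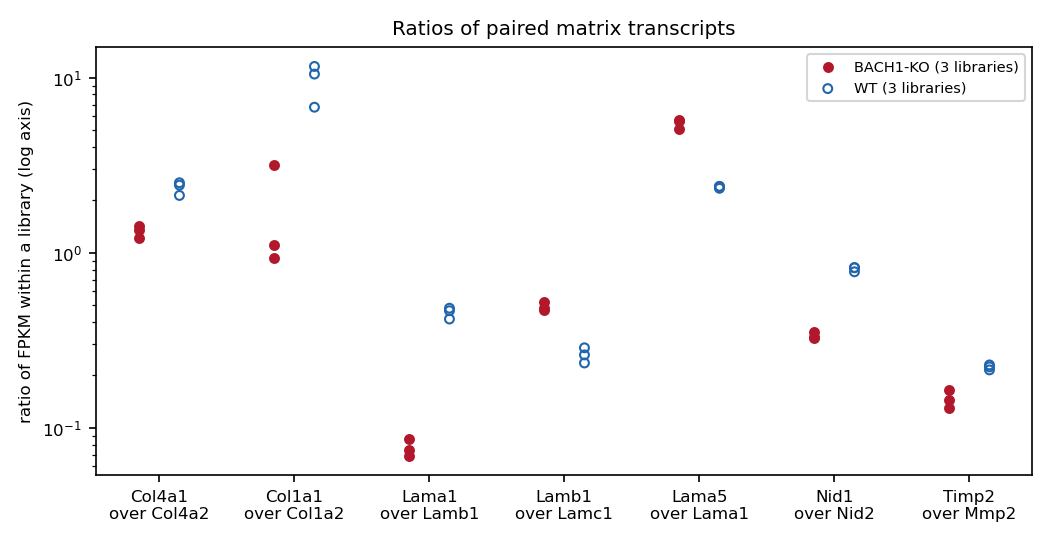
Ratio of FPKM (log axis) of transcript pairs within each library, 3 BACH1-KO (filled, left) and 3 WT (open, right) libraries per pair. The groups do not overlap for any of the 7 pairs, and Lama1 over Lamb1 lies near 0.0767 in BACH1-KO and near 0.454 in WT; both genes of the Col1a1 over Col1a2 pair are under 1 FPKM.

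All 3 linker genes fell. Nid1 (chr13:13437551-13512269), which encodes nidogen-1, had 16.3, 15.8 and 15.5 FPKM in BACH1-KO, against 52.9, 54.3 and 55.2 FPKM in WT (log2 fold change -1.71, SE 0.04, limma adjusted p = 1.88e-08). Its paralogue Nid2 (chr14:19751265-19811787) had 46.1, 48.5 and 46.7 FPKM in BACH1-KO, against 68.1, 66.1 and 67.4 FPKM in WT (log2 fold change -0.50, SE 0.03, limma adjusted p = 3.17e-06). Nid1 thus moved further than Nid2: their ratio was 0.337 ± 0.0145 in BACH1-KO and 0.805 ± 0.0251 in WT (SD, n = 3 each, exact permutation p = 0.1). Nid2 shares 8.45% of its exonic bases with Rtraf on the opposite strand, listed under its older symbol 2700060E02Rik, at 196 ± 3.40 FPKM in BACH1-KO and 196 ± 7.63 FPKM in WT (SD, n = 3 each). Whether counting used the strand is not stated, so part of the Nid2 level may belong to that gene. Hspg2 (chr4:137468769-137570630), which encodes perlecan, had 2.91, 3.54 and 3.12 FPKM in BACH1-KO, against 9.07, 8.45 and 8.74 FPKM in WT (log2 fold change -1.22, SE 0.07, limma adjusted p = 1.50e-06).

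The 2 abundant glycoproteins outside these networks went opposite ways. Sparc (chr11:55394500-55423183), a collagen-binding protein, had 50.5, 48.4 and 48.0 FPKM in BACH1-KO, against 96.4, 91.5 and 89.7 FPKM in WT (log2 fold change -0.90, SE 0.04, limma adjusted p = 3.22e-07). Fn1 (chr1:71585520-71653200), which encodes fibronectin, had 57.0, 60.1 and 59.4 FPKM in BACH1-KO, against 49.8, 48.2 and 48.2 FPKM in WT (log2 fold change 0.27, SE 0.03, limma adjusted p = 1.62e-04). Among the 66 genes Sparc was the most abundant in every WT library, while in the knockout libraries Serpinh1 and Fn1 were above it. Fibronectin is also a plasma protein secreted by hepatocytes, and a list of 24 hepatocyte markers summed to 1117 to 1150 FPKM in BACH1-KO and 15.8 to 22.8 FPKM in WT, with all 24 members higher in every knockout library. The part of that difference in the rise of Fn1 was not tested.

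Primitive and parietal endoderm, which arise in such cultures and are rich producers of Lama1, type IV collagen and Sparc, were followed with 16 markers. Their summed level was 17.1 to 19.6 FPKM in BACH1-KO and 21.2 to 22.7 FPKM in WT. The largest difference in FPKM was in Srgn, at 2.51 ± 0.487 FPKM in BACH1-KO and 6.40 ± 0.258 FPKM in WT. Cubn, under 1 FPKM, had a larger ratio of WT to BACH1-KO means, at 9.81 against 2.56 for Srgn. Plat ran the other way, at 2.61 ± 0.214 FPKM in BACH1-KO and 0.722 ± 0.129 FPKM in WT (SD, n = 3 each). Of the 16 markers 7 were lower in every knockout library and 5 higher, and 8 stayed under 1 FPKM in all 6 libraries. Among those 8, Gata6, Pdgfra, Thbd and Cubn were lower, Fst was higher, and Sox17, Sox7 and Foxa2 overlapped. Of all genes under 1 FPKM, 8.89% were lower and 50.3% higher in this way, and 79.3% of all genes tested did not overlap. Gata6, a defining transcription factor, was 0.283, 0.413 and 0.197 FPKM in BACH1-KO and 0.708, 0.581 and 0.562 FPKM in WT, while Gata4 was 1.82, 1.72 and 1.60 FPKM in BACH1-KO and 1.22, 1.46 and 1.46 FPKM in WT. The 15 fibroblast or feeder markers with a row summed to 92.6 to 94.2 FPKM in BACH1-KO and 219 to 239 FPKM in WT, mostly from Vim, which embryonic stem cells also express. Of these 7 were higher and 4 lower in every knockout library, and 8 stayed under 1 FPKM in all libraries. The higher Twist2, Prrx1, Dcn, Lum and Postn were among those 8, at levels where 50.3% of all genes were higher in this way. S100a4 was listed at 0 in all BACH1-KO libraries, and Prrx1, Twist2 and Lum were listed at 0 in all WT libraries. The part of either cell type in the matrix changes was not tested.

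Fibrillar collagens were scarce in both genotypes and moved in both directions. Of 11 chains only 3 could be tested. Col5a3 (chr9:20770050-20815067), a minor type V chain whose promoter is printed above, had 0.404, 0.326 and 0.436 FPKM in BACH1-KO, against 2.69, 2.10 and 2.17 FPKM in WT (log2 fold change -1.25, SE 0.10, limma adjusted p = 6.75e-06). Col5a1, its partner chain, fell to 1.10 ± 0.0229 FPKM in BACH1-KO, against 2.06 ± 0.0817 FPKM in WT (SD, n = 3 each, limma adjusted p = 1.66e-04). Col5a2, another chain of the same collagen, was too low to test and ran the other way, with 0.799, 0.811 and 0.858 FPKM in BACH1-KO and 0.101, 0.0275 and 0.0665 FPKM in WT. Col1a1, the main chain of bone and tendon collagen, had 0.210, 0.209 and 0.373 FPKM in BACH1-KO and 0.610, 0.750 and 0.587 FPKM in WT, also too low to test.

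The chains of type IX collagen were higher in the knockout cells. Col9a2 (chr4:121039385-121055322), a chain of this collagen, which decorates cartilage fibrils, had 16.5, 15.7 and 16.4 FPKM in BACH1-KO, against 4.45, 4.10 and 3.67 FPKM in WT (log2 fold change 1.76, SE 0.07, limma adjusted p = 1.82e-07). Its partner Col9a3 (chr2:180597790-180622189) had 2.31, 2.77 and 2.74 FPKM in BACH1-KO, against 0.480, 0.437 and 0.404 FPKM in WT (log2 fold change 1.32, SE 0.09, limma adjusted p = 2.65e-06). The third chain, Col9a1, had 0.198, 0.350 and 0.636 FPKM in BACH1-KO and was listed at 0 in all WT libraries. All 3 chains were thus higher in every knockout library, with Col9a2 far above its partners in both genotypes. Col9a3 passed the filter only because of BACH1-KO and so had to differ. Col9a1 was under 1 FPKM, where 50.3% of all genes were higher in this way. Col9a3 shares 6.07% of its exonic bases with Tcfl5 on the opposite strand, itself at 33.7 ± 0.940 FPKM in BACH1-KO and 29.5 ± 1.12 FPKM in WT (SD, n = 3 each).

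Col2a1 (chr15:97975602-98004695), the main cartilage fibril collagen, had 1.90, 2.08 and 1.70 FPKM in BACH1-KO, against 0.607, 0.539 and 0.700 FPKM in WT (log2 fold change 0.84, SE 0.09, limma adjusted p = 4.33e-05). The call was lost when tested against a fold change of 1.5 in FPKM + 1, a scale that understates changes of low genes (limma treat adjusted p = 0.0509). Of other collagens of cartilage, Col11a1, Col11a2 and Col10a1 overlapped between the groups, while the type IX chains above did not. Col27a1, another fibrillar chain, was higher in every knockout library, at 0.376 ± 0.0207 FPKM in BACH1-KO and 0.283 ± 0.0264 FPKM in WT (SD, n = 3 each). Col11a2, with Col11a1 a partner of Col2a1 in these fibrils, was at most 0.0981 FPKM in any library, and Col10a1, of hypertrophic cartilage, at most 0.0226 FPKM. Col11a1 overlapped between the groups at 0.708, 0.672 and 0.704 FPKM in BACH1-KO and 0.758, 0.481 and 0.636 FPKM in WT. Col26a1 (chr5:136741759-136883209), a little-studied collagen first described in testis and ovary of the mouse, had 3.90, 3.92 and 4.16 FPKM in BACH1-KO, against 0.986, 0.869 and 0.827 FPKM in WT (log2 fold change 1.40, SE 0.07, limma adjusted p = 8.06e-07).

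Col18a1 (chr10:77052178-77166548), a basement membrane collagen whose C-terminal fragment is endostatin, was the most abundant collagen transcript in both genotypes and did not pass. It had 38.2, 36.9 and 37.7 FPKM in BACH1-KO, against 37.5, 34.6 and 36.0 FPKM in WT (log2 fold change 0.06, SE 0.04, limma adjusted p = 0.200). Quantile normalization turned Col18a1 into a call, higher in BACH1-KO (adjusted p = 0.0298), as did rescaling to TPM (adjusted p = 0.0375), with a log2 fold change of 0.12 in both. Col13a1, a transmembrane collagen of cell adhesions, fell to 1.16 ± 0.268 FPKM in BACH1-KO, against 2.09 ± 0.438 FPKM in WT (SD, n = 3 each, limma adjusted p = 0.00725).

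The largest fall among the matrix genes tested was in collagen processing. Pcolce (chr5:137605103-137613784), which encodes an enhancer of the enzyme that trims procollagen C-terminal ends, had 6.96, 6.63 and 8.31 FPKM in BACH1-KO, against 79.1, 73.1 and 77.0 FPKM in WT. The ratio of WT to BACH1-KO means was 10.5, and the log2 fold change -3.23 (SE 0.07, limma adjusted p = 2.16e-08). Serpinh1 (chr7:99345376-99353239), the collagen-specific chaperone of the endoplasmic reticulum also called HSP47, had 69.9, 67.3 and 67.6 FPKM in BACH1-KO, against 37.2, 40.9 and 41.3 FPKM in WT (log2 fold change 0.77, SE 0.05, limma adjusted p = 1.65e-06). Neither gene overlapped between the groups. Pcolce shares 2.93% of its exonic bases with Fbxo24 on the same strand, which was at 0.586 ± 0.127 FPKM in BACH1-KO and 1.26 ± 0.173 FPKM in WT (SD, n = 3 each). Lox, an enzyme that crosslinks collagen and elastin, was at most 0.0777 FPKM in any library.

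Among turnover genes, the gelatinase Mmp2 and its inhibitors Timp1 and Timp2 fell, and Timp3, an inhibitor that binds to matrix, rose. Mmp2 (chr8:92827291-92853420) had 10.9, 9.85 and 11.2 FPKM in BACH1-KO, against 15.7, 16.8 and 16.6 FPKM in WT (log2 fold change -0.58, SE 0.06, limma adjusted p = 3.46e-05). Timp1 had 30.5, 32.4 and 33.4 FPKM in BACH1-KO, against 44.2, 45.2 and 49.5 FPKM in WT (log2 fold change -0.51, SE 0.05, limma adjusted p = 4.38e-05). Timp2, which also helps to activate pro-MMP2, had 1.79, 1.42 and 1.45 FPKM in BACH1-KO, against 3.58, 3.73 and 3.55 FPKM in WT (log2 fold change -0.86, SE 0.08, limma adjusted p = 2.14e-05). The ratio of Timp2 to Mmp2 was 0.146 ± 0.0178 in BACH1-KO and 0.221 ± 0.00727 in WT (SD, n = 3 each, exact permutation p = 0.1). Timp3 averaged 4.21 ± 0.128 FPKM in BACH1-KO and 2.79 ± 0.109 FPKM in WT (SD, n = 3 each, limma adjusted p = 2.06e-04). It shares 21.3% of its exonic bases with Syn3 on the opposite strand, which was at 0.295 ± 0.102 FPKM in BACH1-KO and 0.326 ± 0.0687 FPKM in WT.

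Summed over each of 10 roles, 7 roles took a smaller share of the library in BACH1-KO and 3 a larger one. The 66 genes together had 422, 425 and 427 FPKM in BACH1-KO, against 604, 591 and 605 FPKM in WT, which is 0.0551% to 0.0560% of the summed FPKM of a BACH1-KO library and 0.0734% to 0.0769% of a WT library. The share of the type IV collagen chains in BACH1-KO was 0.374 times that in WT, that of the laminins 0.645 times and that of the linkers 0.531 times. Processing genes were at 0.679 times, turnover genes at 0.733 times, the glycoproteins Fn1 and Sparc at 0.796 times and the fibrillar collagens at 0.908 times the WT share. Collagens that attach to fibrils (type IX and its relatives, the FACIT group) summed to 20.3, 20.4 and 21.5 FPKM in BACH1-KO, against 5.32, 5.00 and 4.58 FPKM in WT, 4.35 times the WT share, nearly all of it Col9a2 and Col9a3. Type VI and other beaded or network collagens were at 2.98 times the WT share, and transmembrane and multiplexin collagens at 1.08 times. Most of the rise of the beaded and network group was Col26a1. The other 11 chains of that group averaged under 1 FPKM, where 76.2% of all genes had the higher mean in BACH1-KO. By share of the library no role overlapped between the groups (exact permutation p = 0.1 each). In summed FPKM the transmembrane and multiplexin collagens did overlap, at 40.7, 39.6 and 39.8 FPKM in BACH1-KO and 39.8, 37.6 and 38.8 FPKM in WT.

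**Figure D4:**
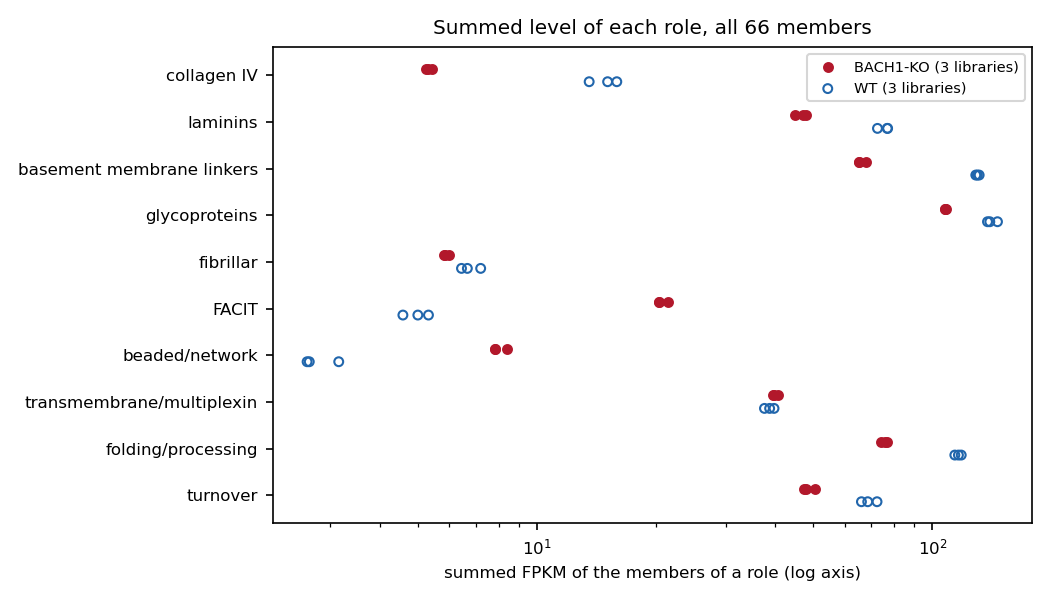
Summed FPKM (log axis) of the members of each role in 3 BACH1-KO (filled, above) and 3 WT (open, below) libraries. The type IV collagen, laminin and linker sums lie to the left of WT and the FACIT sums, 20.3 to 21.5 FPKM in BACH1-KO and 4.58 to 5.32 FPKM in WT, to the right.

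The other 38 matrix genes had a mean under 1 FPKM and were not tested. Of these 23 (60.5%) were higher in every BACH1-KO library than in any WT library, 2 (Col1a1 and Col7a1, or 5.26%) were lower and 13 overlapped. Low genes as a whole did the same: of 5019 genes under 1 FPKM with a value above 0 in at least 3 libraries, 50.3% were higher and 8.89% lower in this way. In a fit with no filter on low values 19 of the 38 were called higher and 2 lower (5.26%), where 43.9% of these 5019 low genes were called higher and 7.19% lower. Over all 66 genes that fit called 27 higher and 19 lower, where 35.5% of all 18518 genes were called higher and 27.4% lower. The median low gene was at 0.244 to 0.247 FPKM in BACH1-KO and 0.0891 to 0.0923 FPKM in WT, and the median low matrix gene at 0.145 to 0.190 FPKM in BACH1-KO and 0.0510 to 0.0692 FPKM in WT. The share of low matrix genes that were higher was thus near that of low genes in general and is not a result about matrix genes. Hepatic stellate cells, the collagen-producing cells of liver, were followed with 10 markers, of which 5 were higher and 2 lower in every knockout library. Their sum was 16.4 to 17.7 FPKM in BACH1-KO and 24.1 to 24.3 FPKM in WT. Most of that sum was Des and Ngfr, the 2 lower markers. The 5 higher markers (Lrat, Reln, Rgs5, Dcn and Colec11) were all under 1 FPKM, where 50.3% of genes were higher in this way. The part of stellate cells in the low collagens, and that of the hepatocyte transcripts described above, was not tested.

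Among the low genes, Col3a1, Col4a6, Col9a1, Col28a1 and Lama2 were listed at 0 in all WT libraries and above 0 in all BACH1-KO libraries. Col3a1, a collagen of skin and vessels, had 0.0723, 0.103 and 0.132 FPKM in BACH1-KO. Col6a2, a chain of the beaded filaments around many cells, had 1.32, 1.17 and 1.22 FPKM in BACH1-KO, against 0.186, 0.321 and 0.228 FPKM in WT. Its partners Col6a1 and Col6a3 overlapped between the groups, at no more than 0.267 and 0.0494 FPKM in any library. Lama4, the alpha chain of vessel laminin, had 0.520, 0.451 and 0.450 FPKM in BACH1-KO and 0.122, 0.171 and 0.261 FPKM in WT. Col7a1, which anchors skin to its basement membrane, was lower, with 0.189, 0.139 and 0.141 FPKM in BACH1-KO and 0.437, 0.500 and 0.377 FPKM in WT.

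**Figure D5:**
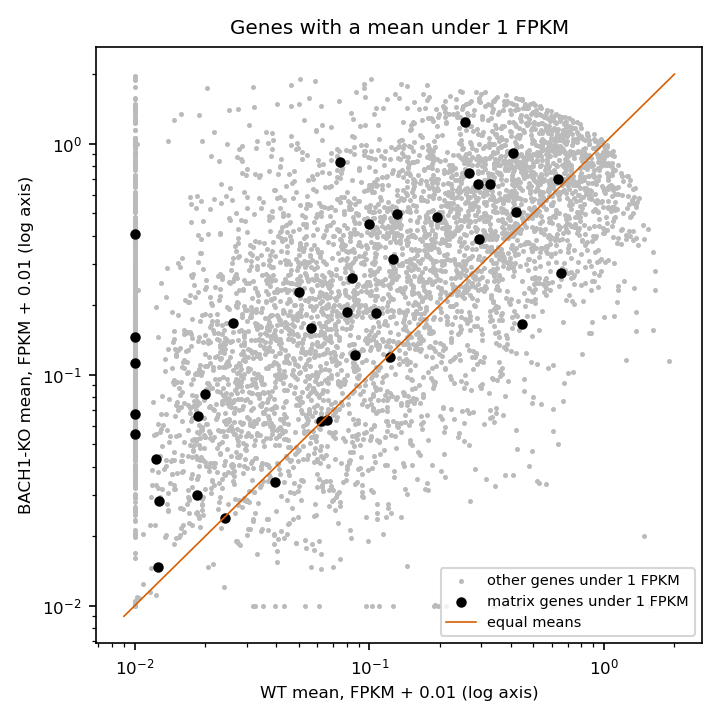
Mean FPKM + 0.01 in BACH1-KO (vertical, log axis) against WT (horizontal, log axis) for genes with a mean under 1 FPKM, with the 38 matrix genes in black over the other genes in grey. Most points of both kinds lie above the line of equal means; 84.2% of the matrix genes and 76.2% of all low genes have the higher mean in BACH1-KO.

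Neighbouring collagen genes did not always move alike, but those that differed were all too low to test. Besides Col4a1 and Col4a2, the pairs Col4a3 and Col4a4 (71 bases apart) and Col4a5 and Col4a6 (1308 bases apart) lie head to head. Col4a5 was 0.343, 0.244 and 0.167 FPKM in BACH1-KO and 0.0741, 0.0384 and 0.110 FPKM in WT, and Col4a6 0.120, 0.110 and 0.179 FPKM in BACH1-KO and listed at 0 in all WT libraries. Col4a3 and Col4a4 overlapped between the groups at no more than 0.0335 FPKM in any library. Col6a4 and Col6a5 were higher in every knockout library, while the next gene of the row, Col6a6, overlapped. Col3a1 and Col5a2, tail to tail and 24614 bases apart, were both higher in every knockout library.

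Genes that modify, transport and bind matrix proteins were read from 6 further lists, in the same fit. Most of the collagen modification and secretion list was lower in the knockout cells: 15 of 19 tested genes fell, 0 rose and 4 did not pass (median log2 fold change -0.35). The share that fell was 78.9%, where 39.7% of all genes tested fell and 37.3% rose. P4hb, a subunit of the enzyme that hydroxylates collagen prolines and also protein disulfide isomerase, fell to 208 ± 0.689 FPKM in BACH1-KO, against 382 ± 4.16 FPKM in WT. Plod1, a lysyl hydroxylase, fell to 12.9 ± 0.201 FPKM in BACH1-KO, against 30.1 ± 0.537 FPKM in WT, and Crtap, a partner in prolyl 3-hydroxylation, to 22.6 ± 0.833 FPKM in BACH1-KO, against 49.1 ± 1.56 FPKM in WT. Sec23a, a coat protein of the vesicles that carry procollagen, fell to 27.9 ± 0.759 FPKM in BACH1-KO, against 40.1 ± 1.16 FPKM in WT (SD, n = 3 each). By limma the adjusted p was 6.02e-08 for P4hb, 9.95e-08 for Plod1, 1.99e-07 for Crtap and 6.95e-06 for Sec23a.

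Of 17 matrix receptors tested 13 fell (76.5%), 3 rose (17.6%) and 1 did not pass (median log2 fold change -0.33), against 39.7% lower and 37.3% higher over all genes tested. Among those that fell, Itga7, Itgb3 and Sdc3 averaged 0.692, 0.703 and 0.886 FPKM in BACH1-KO and passed the filter only because of WT. These genes had to differ and add nothing to the share that fell. Itgb1, the beta subunit shared by most laminin and collagen receptors, fell to 87.3 ± 0.994 FPKM in BACH1-KO, against 134 ± 3.34 FPKM in WT (SD, n = 3 each, limma adjusted p = 7.43e-07). Itga3, an alpha subunit of a laminin receptor, fell to 7.80 ± 0.397 FPKM in BACH1-KO, against 16.7 ± 0.464 FPKM in WT (limma adjusted p = 7.92e-07). Itgb5, of a vitronectin receptor, fell to 6.87 ± 0.135 FPKM in BACH1-KO, against 15.4 ± 0.715 FPKM in WT, and Itga9 to 2.24 ± 0.104 FPKM in BACH1-KO, against 6.21 ± 0.444 FPKM in WT (limma adjusted p = 5.65e-07 and 1.95e-06). The receptors that rose were Itga5, the fibronectin-binding alpha subunit, Sdc2 and Sdc4, a choice of names made with their values known.

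In the propeptide processing and crosslinking list 3 of 5 tested genes fell, 1 rose and 1 did not pass, too few to set against the 39.7% of all genes tested that fell. Pcolce2, the paralogue of Pcolce, fell to 7.61 ± 1.13 FPKM in BACH1-KO, against 30.5 ± 3.58 FPKM in WT (limma adjusted p = 1.43e-06), and Tgm2, a transglutaminase, to 2.22 ± 0.283 FPKM in BACH1-KO, against 12.0 ± 1.49 FPKM in WT (limma adjusted p = 6.93e-07). Loxl2, a lysyl oxidase, fell to 7.04 ± 0.331 FPKM in BACH1-KO, against 8.11 ± 0.0821 FPKM in WT, and Adamts14, a procollagen N-proteinase, rose to 3.66 ± 0.125 FPKM in BACH1-KO, against 3.04 ± 0.193 FPKM in WT (SD, n = 3 each, limma adjusted p = 0.0138 and 0.0218). The call of Loxl2 was lost without the second BACH1-KO library (adjusted p = 0.0534), and that of Adamts14 without the second or the third BACH1-KO library or the first WT library (adjusted p = 0.0613, 0.0711 and 0.0521). Loxl2 was also not called after rescaling to TPM (adjusted p = 0.0649), nor Adamts14 after quantile normalization (adjusted p = 0.57).

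Among matrix proteases and inhibitors 3 of 8 tested genes (37.5%) were lower, 2 were higher and 3 missed the threshold. As 39.7% of all genes tested were lower, that share is near the background and is not a result about proteases. Htra1, a secreted serine protease, fell to 2.20 ± 0.0912 FPKM in BACH1-KO, against 5.92 ± 0.552 FPKM in WT, and Mmp17, a membrane-bound metalloproteinase, to 5.60 ± 0.313 FPKM in BACH1-KO, against 10.9 ± 0.631 FPKM in WT. Mmp14, the membrane protease that activates pro-MMP2, fell to 3.10 ± 0.0784 FPKM in BACH1-KO, against 4.62 ± 0.112 FPKM in WT. Reck, a membrane-anchored inhibitor of MMP2 and MMP14, rose to 7.18 ± 0.427 FPKM in BACH1-KO, against 2.87 ± 0.373 FPKM in WT (SD, n = 3 each, limma adjusted p = 8.54e-06).

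Of 23 other glycoproteins and proteoglycans tested, 9 rose (39.1%), 10 fell (43.5%) and 4 did not pass, shares near the 37.3% and 39.7% of all genes tested and so not a result about the list. Among the rises, Efemp1 and Vtn were under 1 FPKM in WT and passed the filter only because of BACH1-KO, so they had to differ. Spp1, which encodes osteopontin, fell to 264 ± 6.44 FPKM in BACH1-KO, against 438 ± 17.2 FPKM in WT, and Ntn1, which encodes netrin-1, to 6.66 ± 0.426 FPKM in BACH1-KO, against 23.9 ± 1.57 FPKM in WT (SD, n = 3 each, limma adjusted p = 7.28e-07 and 1.76e-07). Efemp1, an elastic fibre protein, rose to 2.04 ± 0.155 FPKM in BACH1-KO, against 0.0463 ± 0.0180 FPKM in WT. Vtn, which encodes vitronectin, a plasma protein made mainly by hepatocytes, rose to 11.3 ± 0.842 FPKM in BACH1-KO, against 0.308 ± 0.172 FPKM in WT (log2 fold change 3.24, SE 0.10, limma adjusted p = 9.57e-08), alongside the hepatocyte markers given above.

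Of 15 TGF-beta and YAP regulators of matrix genes tested, 4 rose (26.7%), 5 fell (33.3%) and 6 did not pass, against 37.3% higher and 39.7% lower over all genes tested. Tgfb1, the growth factor best known for inducing matrix genes, fell to 3.98 ± 0.679 FPKM in BACH1-KO, against 10.1 ± 0.731 FPKM in WT, and its feedback inhibitor Smad7 to 2.36 ± 0.114 FPKM in BACH1-KO, against 8.66 ± 1.96 FPKM in WT (SD, n = 3 each, limma adjusted p = 1.87e-05 and 1.37e-05). The YAP targets Ctgf and Amotl2 rose, Ctgf to 8.68 ± 0.241 FPKM in BACH1-KO, against 3.73 ± 0.678 FPKM in WT, and Amotl2 to 11.2 ± 0.396 FPKM in BACH1-KO, against 3.97 ± 0.259 FPKM in WT (limma adjusted p = 2.44e-05 and 4.97e-07). Cyr61, another YAP target, averaged 2.41 ± 0.239 FPKM in BACH1-KO and 2.75 ± 0.626 FPKM in WT and did not pass (log2 fold change -0.12, SE 0.13, limma adjusted p = 0.390).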

How the data were processed

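Per the submitters' processing notes, the tools used upstream include Cufflinks and the build is mm10; the aligner, the annotation and any version: not given in the sources used here. The authors deposited FPKM values per gene symbol, already scaled to library size and transcript length, and no counts were used. Column names give the genotype but match no single sample title, so columns are unnumbered replicates of a group (ordinals of libraries follow column order). All 6 columns were used. Left out were 23 rows with a number for a symbol (0.0987% of summed FPKM).

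Log2(FPKM + 1) was fitted with limma 3.58.1 in R 4.3.3 (eBayes with a mean-variance trend, Benjamini-Hochberg over all 12187 genes averaging 1 FPKM or more). Fold changes are BACH1-KO minus WT on that scale, which understates changes of low genes. The genes, lists and tests were chosen with earlier results of these data known. Per-library values are given for called members that reach 10 FPKM in a group or at least double or halve, other members being named as needed, and up to 4 called genes per pathway list, with the smallest adjusted p, are named. Positions of all 66 genes are from GENCODE vM21 (GRCm38, the assembly of mm10). Relative depth was read from values under 0.1 FPKM. Alternatives were other pseudocounts, filters, scalings and variance priors, a test against a fold change of 1.5, and leaving out each library; those for pathway genes were chosen after seeing the data. With few libraries the precision is limited by the spread of 3 values, and absolute depth is unknown. Among the tested genes, 1 is counted but its own values are not reported here.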

Additional observations from a re-analysis of the deposited data

How the results depend on the processing

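The 17 falls and 8 rises among the matrix genes stayed within 1.5 times under the alternatives except these. With no filter on low values 27 of 66 rose, 19 of them genes under 1 FPKM, where 35.5% of all genes rose. With a filter at 5 FPKM 3 rose and 11 fell of 16 left to test, where 6804 of 8613 genes were called. Tested against a fold change of 1.5, where 19.0% of all genes were called, 5 rose and 11 fell. Leaving out 1 library gave 7 to 8 rises and 17 falls. The 6 pathway lists had 19 rises and 49 falls of 87 tested, where 37.3% of all genes tested rose and 39.7% fell. Without a filter 45 of 144 rose, where 35.5% of all genes rose. A filter at 5 FPKM left 11 rises of 57. Against a fold change of 1.5 there were 5 rises and 18 falls of 87, where 19.0% of all genes were called. Quantile normalization moved the log2 ratio, BACH1-KO minus WT, of Lama1 over Lamb1 to -2.98, of Lama5 over Lama1 to 1.56 and of Timp2 over Mmp2 to -0.95. It moved the log2 share of the fibrillar collagens to -0.83, of type IV collagen to -1.71, of the FACIT group to 1.81, of the beaded and network collagens to 0.76 and of the laminins to -0.75. The cause was not tested. Lamb1, never past the threshold when its sign turned, had a log2 fold change of 0.0194 with median-of-ratios scaling and 0.0536 after rescaling to TPM, and ran from -0.0398 to 0.0575 without 1 library. No paired analysis was possible because the columns carry no replicate label that ties them to a sample title. Of the called matrix genes, Col13a1, Col2a1, Col5a1, Fn1, Lamb2, Mmp2, Nid2, Timp1 and Timp3 were not called against a fold change of 1.5. Levels under 1 FPKM rest on few fragments and give no firm order.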
